A study of Mus musculus with 6 samples.

Results

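Protocadherins and cadherins are calcium-dependent adhesion proteins of the cell surface, and 92 of the 55341 genes in the count table belong to them. The members were taken by symbol: every gene whose name starts with Pcdh, and every gene named Cdh followed by a number. They comprise 57 clustered protocadherins (13 alpha, 22 beta and 22 gamma genes), 12 non-clustered protocadherins and 23 cadherins. The cadherins were divided by textbook class into 5 type I genes, 13 type II genes and 5 others. RNA had been sequenced from 6 single olfactory sensory neurons, which line the nose and detect odours, of 6-week-old C57BL/6 mice with no allele or treatment named in the labels. Each neuron was recorded from physiologically, frozen and made into its own CEL-Seq2 library, here OSN1 to OSN6. The labels put all neurons in 1 group and name no animals, so no difference between neurons has a replicate check and no p-value is given.

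Clustered protocadherins are encoded side by side on chromosome 18. An alpha or gamma transcript joins a variable first exon, which encodes the extracellular part, to constant exons shared by the whole group, whereas each beta gene is a transcription unit of its own. A neuron is known to choose a small combination of these promoters, and matching combinations on 2 membranes let neurites of the same cell recognise each other; in olfactory neurons this diversity is known to be needed for axons to spread within their target glomeruli. Non-clustered protocadherins have separate genes and weaker adhesion, and classical cadherins of types I and II bind catenins, which tie them to the actin skeleton.

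The leading odorant receptor was Olfr740 in OSN1 and OSN2, Olfr741 in OSN3 and OSN4, and Olfr743 in OSN5 and OSN6. These pairs were defined by a measured transcript and are not groups of the study, so they are described and not tested. Totals ran from 8613 counts in OSN1 to 122546 in OSN3, and 1 count was worth 116 CPM (counts scaled to a total of 1000000 per neuron) in OSN1 but 8.16 CPM in OSN3. A gene without a count could still lie at up to 428 CPM in OSN1 and 315 CPM in OSN6, against 30.1 CPM in OSN3. These are upper limits of the exact Poisson interval. The level of 3 counts was 348 CPM in OSN1, 256 CPM in OSN6 and 24.5 CPM in OSN3. All 9 mature olfactory neuron markers were found in OSN1 to OSN5, and 6 of them in OSN6, which had no count of Cnga2, Cnga4 and Rtp1. Their sum ran from 16160 CPM in OSN5 to 31000 CPM in OSN1. Among markers of other cells, 4 of 5 horizontal basal, 4 of 6 globose basal, 6 of 7 endothelial and 4 of 5 microvillar genes had no count in any neuron. Sustentacular genes (5 of 9 found, Cbr2 in all 6 neurons) summed to 116 to 1276 CPM, highest in OSN2. Fibroblast genes (4 of 6) reached 116 CPM in OSN2 and immune genes (2 of 7) 49.0 CPM in OSN3. Ensheathing glia genes (3 of 6) were found in OSN3 and OSN4 alone, at up to 65.7 CPM. The microvillar gene with counts, Coch, reached 1962 CPM in OSN6. Red blood cell transcripts (4 of 5 genes found) ran from 171 to 12610.4 CPM and gland transcripts (9 of 10) from 85.3 to 34370 CPM. Their part in any result was not tested.

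Members were found at low levels and in few neurons each. Over all neurons, 35 of the 92 genes (38.0%) had at least 1 count, beside 29.8% of all genes and 49.8% of protein-coding genes, and 57 had none. Only 22 reached 3 counts in any neuron (16.1% of all genes and 31.1% of protein-coding genes did). A single member, Pcdh7, was found in all 6 neurons, as were 1.50% of all and 2.89% of protein-coding genes. Members with a count numbered 8, 16, 22, 16, 11 and 5 in OSN1 to OSN6, which is 8.70%, 17.4%, 23.9%, 17.4%, 12% and 5.43% of the 92. The corresponding shares of all genes were 5.53%, 14.0%, 21.1%, 17.3%, 11.5% and 5.16%, and those of protein-coding genes 11.4%, 27.0%, 36.1%, 29.7%, 23.9% and 8.36%. At least 3 counts were reached by 2, 3, 15, 12, 5 and 4 members, beside 1.06%, 4.51%, 12.9%, 9.22%, 3.77% and 1.85% of all genes. Most members were found in the deepest library. At an equal depth of 8613 counts between 4.70 and 8.36 members would be expected in each neuron.

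**Figure D1:**
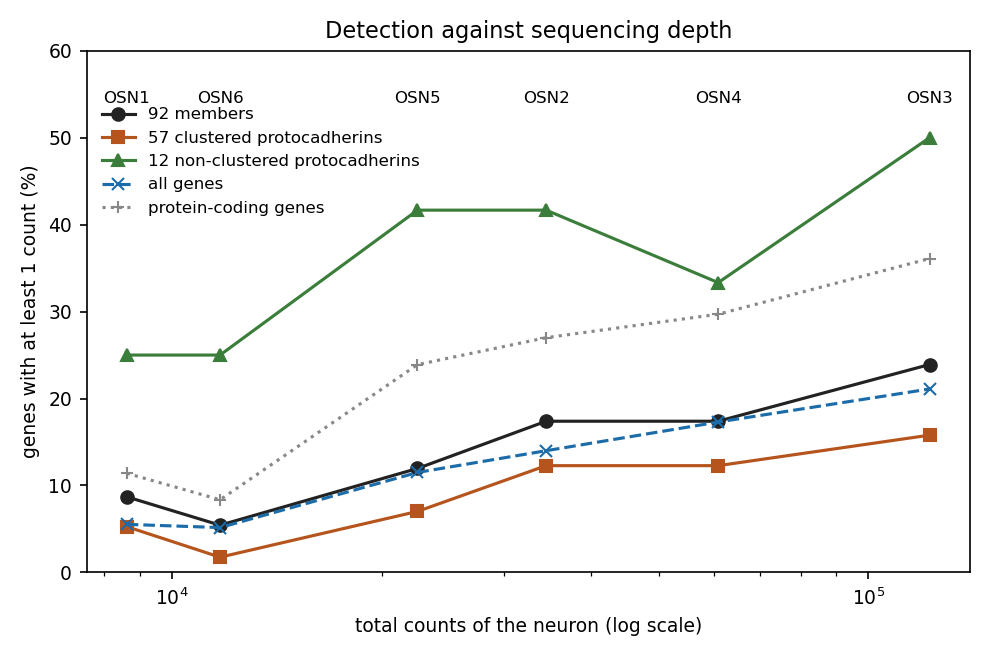
Share of genes with at least 1 count (y axis, percent) against the total counts of each neuron (x axis, log scale), for all 92 members, 2 of their classes, all genes and protein-coding genes. The line of the 92 members lies close to that of all genes, the 57 clustered genes run from 1.75% in OSN6 to 15.8% in OSN3, and the 12 non-clustered genes from 25% to 50%.

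The non-clustered protocadherins carried most of the family's counts. Of 447 member counts in all neurons, 270 came from these 12 genes, 94 from the cadherins and 83 from the 57 clustered genes. Summed over the class, the non-clustered genes had 581, 435, 914, 1281, 1998 and 1279 CPM in OSN1 to OSN6. OSN5 was highest (95% Poisson interval 1457 to 2673) and OSN2 lowest (244 to 718), and these intervals did not overlap. Counts of a 3′ method do not scale with transcript length and were not divided by it. The order of genes by counts was not taken as an order of expression. Nor was the order of classes, since alpha and gamma transcripts share their 3′ ends and their counts do not measure expression.

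**Figure D2:**
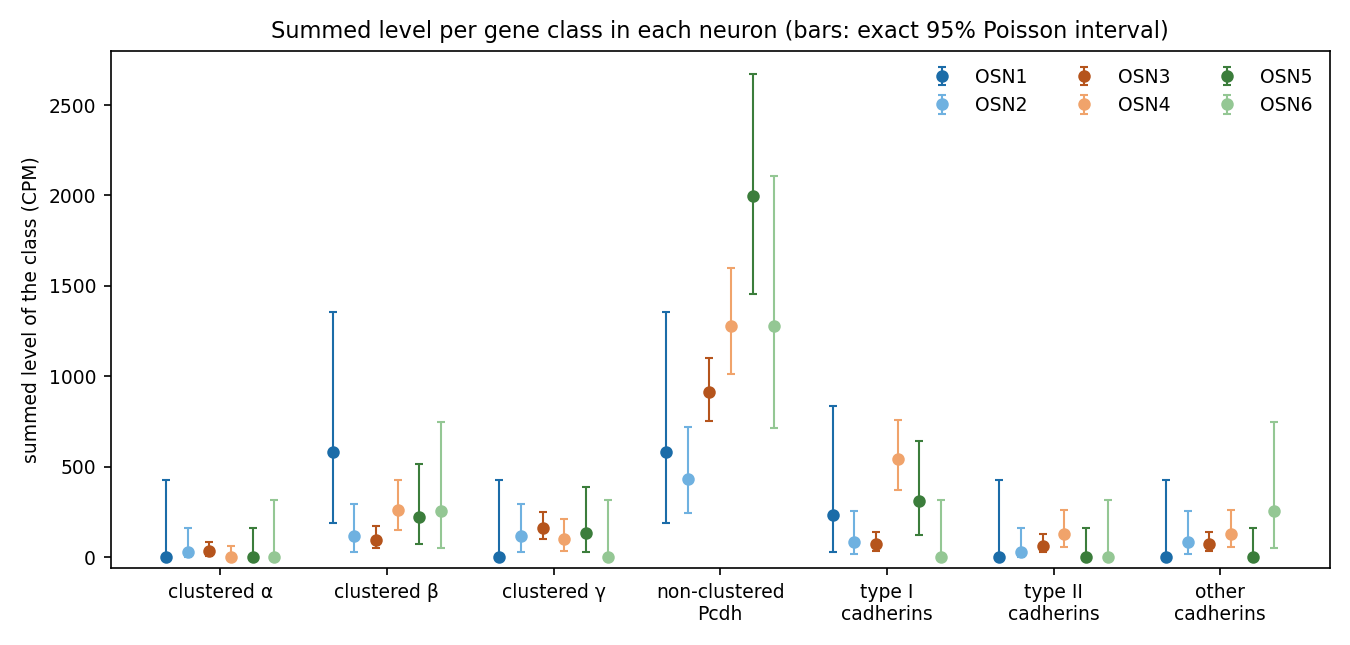
Summed level of each gene class (y axis, CPM) in the 6 neurons, with exact 95% Poisson intervals as bars. Non-clustered protocadherins reach 1998 CPM in OSN5, and no other class exceeds 581 CPM in any neuron. Alpha and gamma sums do not measure expression, because transcripts within each of these groups share their 3′ ends.

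Pcdh10 had the widest range between neurons. This delta-2 protocadherin, whose expression in olfactory neurons is known to depend on activity, had 36 counts in OSN5, 7 in OSN6, 13 in OSN3 and none in OSN1, OSN2 and OSN4. Its level was 1598 CPM (1119 to 2213) in OSN5, 597 CPM (240.0 to 1230.1) in OSN6 and 106 CPM (56.5 to 181) in OSN3. The neurons led by Olfr743 were therefore the highest, yet they differed from each other, with a ratio of OSN5 to OSN6 of 2.68 (95% interval 1.17 to 7.13). OSN5 lay 15.1-fold above OSN3 (7.80 to 31.0). Its ratio to OSN4, which had no count, had a lower 95% bound of 25.1. Within the Olfr741 neurons, the ratio of OSN3 to OSN4 had a lower 95% bound of 1.51. In OSN1 the absence was not informative, since 1.91 counts would fall there at the pooled rate of the other neurons, whereas 8.53 would fall in OSN2 and 17.1 in OSN4. The gene lies on chromosome 3 of GRCm38, from 45378398 to 45435623 on the plus strand.

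Pcdh17 had a different order. It is a delta-2 protocadherin known from axons that extend together and from synapses, and its counts were 1, 7, 17, 48, 6 and 0 in OSN1 to OSN6. OSN4 stood highest with 788 CPM (581 to 1045), against 139 CPM (80.8 to 222) in OSN3, which carries the same receptor. The ratio of OSN4 to OSN3 was 5.68 (3.21 to 10.5), and that of OSN4 to the next highest neuron, OSN5 at 266 CPM, was 2.96 (1.26 to 8.46). Levels in OSN1, OSN2, OSN3 and OSN5, from 116 to 266 CPM, had overlapping intervals. A count of 0 in OSN6 allows up to 315 CPM, so a level like that of OSN2 (203 CPM) could have been missed there. Pcdh17 lies on chromosome 14 (84443563 to 84539002, plus strand). OSN4 also had the highest sum of immature neuron markers, 3382 CPM against 813 to 2985 CPM in the other neurons, and of red blood cell transcripts. The part of these in the high Pcdh17 level was not tested.

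Pcdh7, a delta-1 protocadherin, was the most widely found member. It had 3, 5, 65, 23, 1 and 7 counts in OSN1 to OSN6, which is 348, 145, 530 (409 to 676), 378 (239 to 567), 44.4 and 597 CPM. OSN3 and OSN4 did not differ beyond counting error, with a ratio of 1.40 (0.861 to 2.37). In contrast, OSN6 and OSN5 differed, with a ratio of 13.4 that rests on a single count in OSN5 and has an interval of 1.73 to 606. OSN5, the neuron richest in Pcdh10, thus had the lowest Pcdh7 level, but on 1 count. OSN1 and OSN2 did not differ from it beyond counting error, with ratios to OSN5 of 7.85 (0.630 to 412) and 3.27 (0.366 to 154.5). Pcdh7 spans 57717967 to 58133230 on the plus strand of chromosome 5, and 21.1% of its exonic bases lie opposite exons of the gene 4932441J04Rik, which had 0 counts. Because the strand setting of the counting is not given, reads of these 2 genes cannot be told apart.

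Among the other non-clustered genes, Pcdh19 was found thinly in 5 neurons, and Pcdh15, Pcdh1 and Pcdh9 in fewer. Pcdh19, an X-linked delta-2 protocadherin, had 1, 1, 4, 4, 1 and 0 counts, or at most 116 CPM. Pcdh15, a partner of Cdh23 in the tip links of inner-ear hair cells, had 1, 8 and 3 counts in OSN2, OSN3 and OSN4 and none elsewhere. Pcdh1, a delta-1 protocadherin, had 5 counts in OSN3 and 1 in OSN5. Pcdh9 had 1 count in OSN2 and 1 in OSN6. No count was found for Pcdh8, Pcdh11x, Pcdh12, Pcdh18 and Pcdh20, which in OSN3, the deepest library, allows up to 30.1 CPM each.

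**Figure D3:**
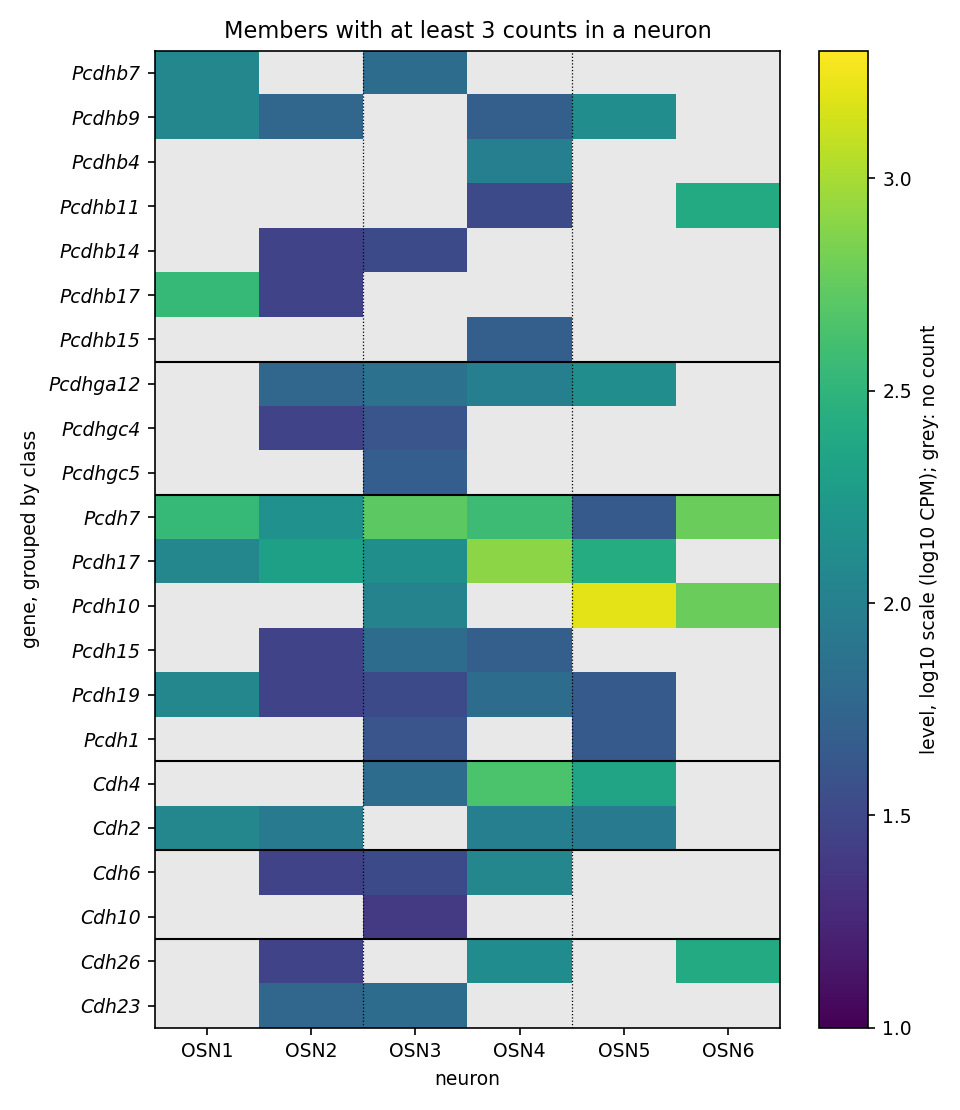
Level (colour, log10 scale of CPM) of the 22 members with at least 3 counts in a neuron, by neuron (columns) and gene class (rows between black lines); grey marks 0 counts and dotted lines separate the receptor pairs. Pcdh7 alone fills all 6 columns, Pcdh10 peaks in OSN5 with 1598 CPM, and the beta genes form a scattered pattern.

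Among members with a promoter window, Pcdh10 and Pcdh17 had levels that differed most between neurons with several counts each. Cdh4, with a ratio of 6.79 between OSN4 and OSN3, had no such window. For Pcdh10 and Pcdh17, the 250 bases before the annotated start are shown with CpG dinucleotides in capitals (RefSeq, GRCm38.p6, chr3:45378148-45378397 and chr14:84443313-84443562, both on the plus strand).
Pcdh10: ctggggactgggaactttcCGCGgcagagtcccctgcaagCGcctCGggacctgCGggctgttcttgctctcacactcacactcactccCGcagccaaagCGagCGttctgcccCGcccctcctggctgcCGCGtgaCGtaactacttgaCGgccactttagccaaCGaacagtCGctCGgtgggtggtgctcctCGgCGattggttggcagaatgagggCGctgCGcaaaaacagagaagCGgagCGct
Pcdh17: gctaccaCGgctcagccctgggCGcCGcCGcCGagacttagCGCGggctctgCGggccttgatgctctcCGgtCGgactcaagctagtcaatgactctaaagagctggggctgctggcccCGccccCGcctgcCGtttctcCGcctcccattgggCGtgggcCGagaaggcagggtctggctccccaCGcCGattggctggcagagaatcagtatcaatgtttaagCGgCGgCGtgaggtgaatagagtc
The Pcdh10 stretch holds 22 CpG at 63.2% GC and the Pcdh17 stretch 21 CpG at 64.8% GC, against medians of 6 CpG and 52.4% GC over 32851 promoter windows of the same length. Of these windows, 85.2% have fewer CpG than Pcdh10 and 83.7% fewer than Pcdh17. Neither stretch held, on either strand, the site of the EBF factors of olfactory neurons, written as TCCC and GGGA with 2 bases between them (0.779% of all windows), or TAATTA, a homeodomain site (4.84%). The promoter table covered 22 of the 92 members. These letters describe the sequence and were not related to the levels.

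Clustered protocadherin counts were few. Of the 57 genes, 19 (33.3%) had a count, beside 29.8% of all genes and 49.8% of protein-coding genes. They were 4 of 13 alpha, 11 of 22 beta and 4 of 22 gamma genes. Of these 19, 11 were found in a single neuron, 6 in 2 neurons and 2 in more. The same split was not made for all genes, so it has no background here and is not read as a result. Summed over the 3 groups, the level was 581, 261, 294, 361, 355 and 256 CPM in OSN1 to OSN6, with overlapping intervals throughout (205.8 to 407 CPM in OSN3, where they were narrowest). The sums thus did not differ beyond counting error. With 83 counts in all, a gene missed in a neuron can in most cases not be told apart from a gene absent there.

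The 3 groups cannot be read alike, because a 3′ method samples the part of the transcript that alpha and gamma genes share. Every stretch of 50 bases within the final 1000 transcript bases was compared with all other genes. For the median alpha gene 100% of them also occurred elsewhere, and for the median gamma gene 75.7%. For beta genes and non-clustered genes the median was 0%. In the annotation, 12 of 13 alpha and 12 of 22 gamma genes have no transcript whose last 500 bases are free of other genes' exons, against 1 of 22 beta genes, Pcdhb21. The labels and notes do not state how reads in shared exons were assigned. The 5 read-through and other genes annotated over the same strand of these exons had 0 counts. Low alpha and gamma counts are therefore no measure of alpha and gamma expression, and only the beta genes can be read isoform by isoform.

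**Figure D4:**
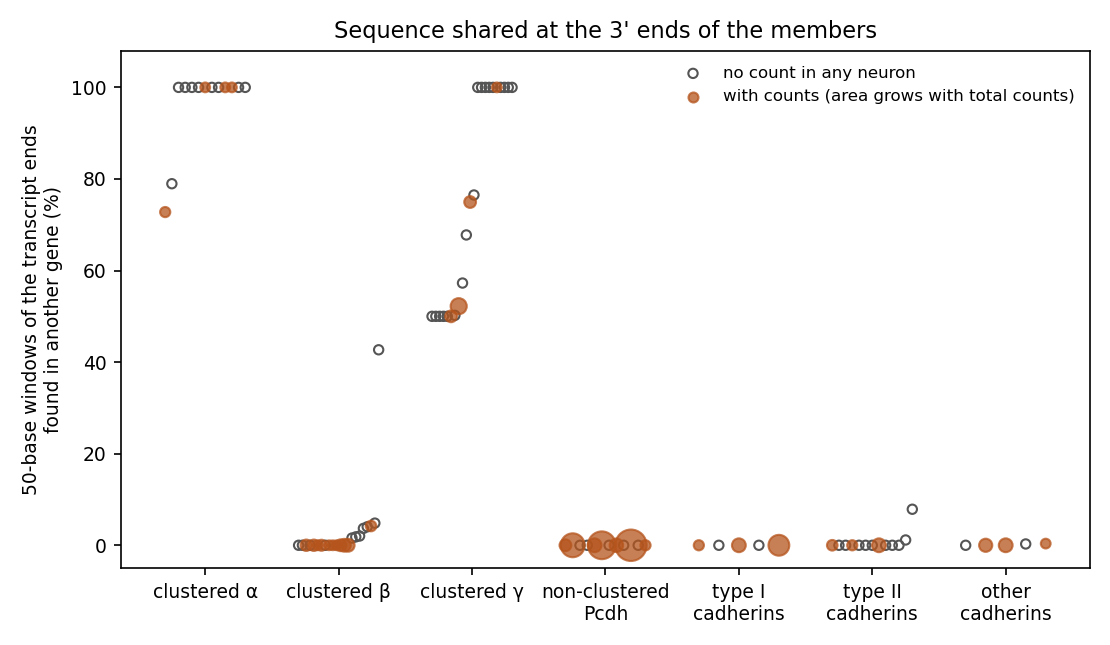
Share of 50-base stretches near the 3′ end that another gene also holds (y axis, percent), for each member by class (x axis); filled points had counts, with area growing with the total, and open points had none. Alpha genes lie at 72.8% to 100%, while beta genes lie below 5% except Pcdhb21 at 42.7%.

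Few beta genes had counts in any 1 neuron. In OSN1 to OSN6 they were 13.6%, 13.6%, 9.09%, 27.3%, 13.6% and 4.55% of the 22. The shares of all genes were 5.53%, 14.0%, 21.1%, 17.3%, 11.5% and 5.16%. Those of protein-coding genes were 11.4%, 27.0%, 36.1%, 29.7%, 23.9% and 8.36%. OSN1 had counts of Pcdhb17 (3), Pcdhb7 (1) and Pcdhb9 (1). OSN2 had Pcdhb9 (2), Pcdhb14 (1) and Pcdhb17 (1). OSN3, although the deepest library, had only Pcdhb7 (8) and Pcdhb14 (4). OSN4 had the most genes, with Pcdhb4 (6), Pcdhb9 (3), Pcdhb15 (3), Pcdhb11 (2), Pcdhb16 (1) and Pcdhb20 (1). OSN5 had Pcdhb9 (3), Pcdhb3 (1) and Pcdhb19 (1), and OSN6 had Pcdhb11 (3) alone. These genes encode cell surface proteins that differ mainly in the extracellular domains used for recognition; members with fewer than 3 counts are named here to make the sets complete.

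Summed beta levels ran from 97.9 CPM (50.6 to 171) in OSN3 to 581 CPM (188 to 1355) in OSN1, the latter resting on 5 counts. Pcdhb9 was the most widely found beta gene, in 4 of 6 neurons at 49.3 to 133 CPM. Its absence from OSN3 stands out, since 7.98 counts would fall there at the pooled rate of the other neurons. A count of 0 there allows up to 30.1 CPM. Pcdhb7 in turn had 8 counts in OSN3 (65.3 CPM) and 0 in OSN4, where 2.74 were due, so a similar level in OSN4 could have been missed. Pcdhb4, with 6 counts in OSN4 (98.5 CPM), had 0 in OSN3, where 5.32 were due.

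Neurons with the same receptor did not have uniformly similar beta sets. OSN1 and OSN2 shared Pcdhb9 and Pcdhb17, which is 66.7% of either list and 50% of the 4 genes found in either neuron. Pcdhb17 was found in these 2 neurons alone, with a single count in OSN2. OSN3 and OSN4 shared 0 of their 2 and 6 beta genes, and OSN5 and OSN6 0 of 3 and 1. The other 12 pairs of neurons shared 0 or 1 beta gene, 4 of them none, and between 0% and 25% of the genes found in either. Most of these single overlaps were Pcdhb9, which joined OSN1, OSN2, OSN4 and OSN5 across receptors. At 3 counts no pair with a common receptor shared a beta gene. With so few counts, isoforms present in both neurons but found in 1 cannot be told apart from isoforms present in 1.

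Across all 57 clustered genes the same pairs shared 2, 1 and 0 genes. For OSN3 and OSN4 this was Pcdhga12, which is 11.1% of the 9 clustered genes of OSN3 and 14.3% of the 7 of OSN4. At 1 count and full depth, the largest overlap was between OSN2 and OSN3, which differ in receptor. They shared Pcdha11, Pcdhb14, Pcdhga12 and Pcdhgc4, or 57.1% of the genes of OSN2 and 44.4% of those of OSN3. Only Pcdhb14 of these is a beta gene. At 3 counts this pair shared 0, and at equal depth 0.367 would be expected, against 0.764 for OSN1 and OSN5. In all genes, OSN1 and OSN2 shared 75.4% of the list of OSN1 and 29.9% of that of OSN2 (4.17% of all genes tested), OSN3 and OSN4 61.6% and 75% (13.0%), and OSN5 and OSN6 27.9% and 62.3% (3.21%). For all 92 members the shares were 75% and 37.5% for OSN1 and OSN2, 36.4% and 50% for OSN3 and OSN4, and 18.2% and 40% for OSN5 and OSN6. Among the pairs with different receptors, all genes found in both made up 4.80%, 4.32%, 3.93% and 1.97% for OSN1 with OSN3, OSN4, OSN5 and OSN6, where the members shared numbered 5, 5, 5 and 1. For OSN2 with the same neurons they made up 10.2%, 8.88%, 7.52% and 3.43%, with 10, 9, 6 and 3 members. For OSN3 they were 9.18% with OSN5 and 4.56% with OSN6 (7 and 2 members), and for OSN4 8.03% and 4.20% (7 and 3 members). OSN3 and OSN4, the 2 deepest libraries, thus had the largest overlap of all genes among these pairs, 51.1% of the genes found in either. For the members this share was 26.7%, beside a median of 26.6% for the 12 pairs with different receptors. For the clustered members it was 6.67%, beside 12.7%, and this includes alpha and gamma genes, whose counts do not measure their expression. At 3 counts OSN3 and OSN4 shared 7 members, the most of any pair.

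**Figure D5:**
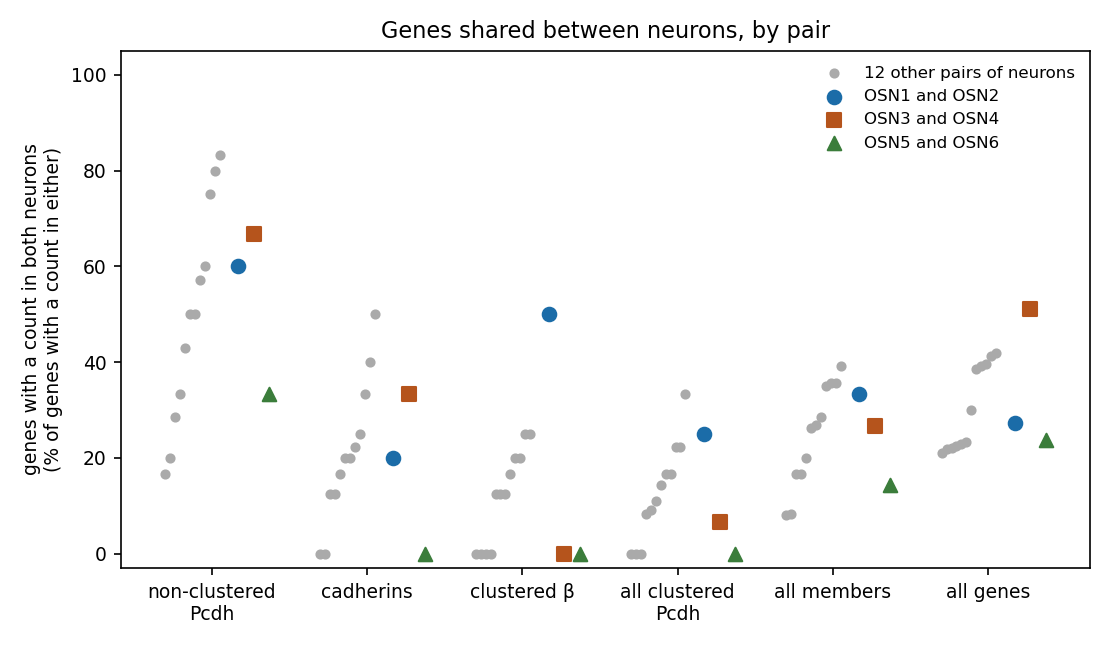
Genes with a count in both neurons as a percentage of those with a count in either (y axis), for each pair of neurons and each gene set (x axis); grey points are the 12 pairs with different receptors and coloured symbols the 3 pairs with a common one. For beta genes OSN1 and OSN2 lie at 50% and the other coloured pairs at 0%, while the grey points reach 25%.

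The gamma counts came mainly from 1 gene. Pcdhga12 had 2, 9, 6 and 3 counts in OSN2 to OSN5, or 58, 73.4, 98.5 and 133 CPM, with overlapping intervals and no count in OSN1 and OSN6. It is 1 of 10 gamma genes with a transcript that ends outside the shared exons, and these 10 genes held 26 of the 33 gamma counts. Pcdhgc4 and Pcdhgc5 belong to the C-type isoforms, several of which are known to be expressed without the random choice of the A and B types. Pcdhgc4 had 5 counts in OSN3 and 1 in OSN2, and Pcdhgc5 had 6 in OSN3. Pcdhga6 had 1 count in OSN2. The alpha genes had 5 counts in all, with 1 each of Pcdha5, Pcdha8, Pcdha9 and Pcdha11 in OSN3 and 1 of Pcdha11 in OSN2. The symbol Pcdha11 stands for 2 annotated genes, so its row may mix them.

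Type I cadherins were represented by Cdh4 and Cdh2. Cdh4, or R-cadherin, had 8, 27 and 5 counts in OSN3, OSN4 and OSN5 and none in the others, which is 65.3 (28.2 to 129), 443 (292 to 645) and 222 (72.1 to 518) CPM. OSN4 lay 6.79-fold above OSN3 (3.0 to 17.3), as for Pcdh17, while OSN4 and OSN5 did not differ beyond counting error (2.0, 0.758 to 6.64). The ratio of OSN4 to OSN2, which had no count, had a lower interval bound of 3.87. The gene lies on chromosome 2 from 179442431 to 179899373 on the plus strand.

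Cdh2, or N-cadherin, the main cadherin of neural tissue, had 1, 3, 0, 6, 2 and 0 counts in OSN1 to OSN6. Its levels in the 4 neurons with counts were alike within error, from 87.0 to 116 CPM. OSN3 was the exception, since 10.6 counts would fall there at the pooled rate and 0 were found. The ratio of OSN4 to OSN3 had a lower interval bound of 2.37. Cdh1, or E-cadherin, the epithelial member, had 1 count in OSN1 and 1 in OSN3, and Cdh3 and Cdh15 had none.

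Type II and other cadherins were rare. Cdh6 had 1, 4 and 7 counts in OSN2, OSN3 and OSN4, with 115 CPM in OSN4, and OSN4 did not differ from OSN3 beyond counting error (3.52, 0.895 to 16.4). Cdh10 had 3 counts in OSN3, and Cdh19, a cadherin known from glia, 1 each in OSN3 and OSN4. The other 10 type II genes had 0 counts, among them Cdh5, the cadherin of blood vessel endothelium, and Cdh8 and Cdh11. Cdh26 had 8 counts in OSN4 (131 CPM), 3 in OSN6 (256 CPM) and 1 in OSN2. It had 0 in OSN3, where 10.6 were due, and the ratio of OSN4 to OSN3 had a lower interval bound of 3.43. Cdh23, the hair-cell tip-link cadherin, had 8 counts in OSN3 and 2 in OSN2, alike at 65.3 and 58 CPM, and 0 in OSN4, where 3.05 were due. Cdh13, or T-cadherin, which is anchored by lipid and lacks a cytoplasmic tail, had 1 count in OSN3. Cdh16 and Cdh17 had none.

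The Olfr741 neurons therefore differed from each other at several members. With at least 3 counts, OSN3 had Pcdh10, Cdh23, Pcdhb7, Pcdhb14, Pcdhgc4, Pcdhgc5, Pcdh1 and Cdh10, for which OSN4 had no count. At the pooled rate of the other neurons, 17.1 counts of Pcdh10 were due in OSN4, but only 0.914 to 3.05 of each other gene. A miss of those genes in OSN4 can therefore not be told apart from absence. Counts of Pcdhgc4 and Pcdhgc5 also do not measure their expression. With the same limit, OSN4 had Cdh2, Cdh26, Pcdhb4, Pcdhb9 and Pcdhb15, for which OSN3 had no count where 2.66 to 10.6 were due. No such lists were made over all genes, so these have no background here. At 1 count, 61.6% of all genes found in OSN3 were also found in OSN4, and 75% the other way. Among members these shares were 36.4% and 50%. The lower 95% bound of the ratio was above 1 for Pcdh10 (1.51), Cdh2 (2.37) and Cdh26 (3.43) but not for Cdh23 (0.848). For the beta genes, Pcdhgc4, Pcdhgc5, Pcdh1 and Cdh10, each with fewer than 10 counts in all, no ratio was computed. Ratios were computed for members only, so no share of all genes stands beside these bounds. Pcdh17 and Cdh4 were higher in OSN4, and Pcdh7, Pcdhga12, Pcdh15, Pcdh19 and Cdh6 did not differ beyond counting error. In the same neurons, immature neuron markers summed to 1110 CPM in OSN3 and 3382 CPM in OSN4, mature markers to 30895 and 17224 CPM, and red blood cell transcripts to 4080.1 and 12610.4 CPM. The part of these in the differences was not tested.

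Partners of the cadherins were found beside them. Of 10 catenins and related genes, 8 had a count in some neuron and the sum ran from 426 to 936 CPM, highest in OSN4. Ctnna1 (alpha-catenin, the link to actin) had a median of 242 CPM, Ctnnb1 (beta-catenin) 184 CPM and Jup (plakoglobin) 91.6 CPM. Ctnnb1 had 4, 7, 36, 10, 3 and 0 counts in OSN1 to OSN6, and its 0 in OSN6 allows up to 315 CPM.

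Relatives outside the rule were found in all neurons. Of 24 other genes of the cadherin superfamily, 7 were found, led by the calsyntenins, which are vesicle cargo and synaptic adhesion proteins. Clstn1 had 7, 30, 284, 48, 25 and 22 counts, a median of 990.0 CPM with a range of 788 to 2318, and Clstn2 had a median of 424 CPM; both were found in all 6 neurons. Cdhr1, a photoreceptor cadherin also known from the olfactory system, had 49 counts in OSN3 (399.8 CPM) and 0 in OSN4. The Fat genes Fat2, Fat3 and Fat4, both Dchs genes and 3 of 3 Dsc genes had no count.

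Genes that act in promoter choice of the clusters were present at low levels. Of 15 such genes, 14 had a count, and their sum ran from 426 CPM in OSN6 to 1687 CPM in OSN5. The DNA methyltransferase Dnmt3a had a median of 216 CPM, and the cohesin subunits Stag2 and Rad21 had 99.8 and 77.0 CPM. Dnmt3b, the methyltransferase known to silence cluster promoters in early development, had 0 counts. The signalling list, with kinases and the WAVE complex that act below protocadherins, had 12 of 12 genes found and 232 to 1110 CPM, led by Marcks (219 CPM), Cyfip2 (136 CPM) and Ptk2 (46.7 CPM). Genes whose products cleave, dephosphorylate or anchor cadherin complexes had 10 of 11 found and 435 to 2644 CPM, led by Psen2 (297 CPM), a catalytic subunit of gamma-secretase, Ptpn1 (124 CPM) and Vcl (99.1 CPM). These lists describe the setting of the members and were not compared with other genes.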

How the data were processed

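RNA was measured in 6 single neurons, 1 CEL-Seq2 library each. Per the labels, read 1 holds only the cell barcode and molecular identifier, so read 2 alone was used for alignment. CASAVA, Bowtie2 2.3.4, HTSeq and the build mm10 appear in the submitters' processing notes, with no role for any of them. No source used here gives the annotation, the strand setting, the handling of ambiguous reads or whether molecular identifiers were collapsed. The authors deposited raw counts per gene symbol, so a count may be a molecule or a read. All 55341 symbols were found in GENCODE M21 (GRCm38), from which positions, exons and transcript sequences were taken.

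CPM values, exact 95% Poisson intervals, exact conditional intervals of ratios between 2 neurons (members with at least 10 counts in all) and exact expected numbers at 8613 counts were computed with Python 3.11.15 and scipy 1.17.1, after checks on simulated counts. Intervals cover counting error only and are too narrow if counts are amplified reads. Totals of 8613 to 122546 counts limit the precision. For a gene without a count, the upper limit of the exact Poisson interval or the lower bound of the ratio interval is given. Windows of 50 bases in the last 1000 transcript bases were searched in all transcripts on both strands. Members with at least 3 counts in a neuron are described with their counts, members below that mainly as numbers of genes. Of the context lists the 3 genes with the highest median CPM are named; other genes of these lists were named with their values known. The alternatives were detection at 3 counts, equal depth, protein-coding genes as background, 3 other scalings, added overlapping genes and each neuron left out. Members and lists were chosen with earlier results of these data known.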

Additional observations from a re-analysis of the deposited data

Results flagged for a closer look

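In 29 sets of values, the 22 members with at least 3 counts and the 7 class sums, 10 had 1 neuron whose distance to its nearest neighbour exceeded Dixon's 95% limit for 6 values. The members entered because some neuron reached 3 counts, and values at 0 in most neurons make the limit easy to pass. The number of flags can therefore not be set against a chance rate. Counts in several neurons stood behind 5 of the members: Pcdh10 in OSN5 (1598 CPM), Pcdh17 in OSN4 (788 CPM), Cdh6 in OSN4 (115 CPM), Pcdhb11 in OSN6 (256 CPM) and Pcdhb17 in OSN1 (348 CPM). The last 2 rest on 3 counts each. For 4 members a single neuron had all counts, which passes the limit in any case. They were Pcdhb4 and Pcdhb15 in OSN4 (98.5 and 49.3 CPM), and Pcdhgc5 and Cdh10 in OSN3 (49.0 and 24.5 CPM). The summed beta level was far highest in OSN1 (581 CPM), the shallowest library, on 5 counts. OSN4 was the outlying neuron in 4 of the 10 sets.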

How the results depend on the processing

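The medians of the class sums (66 alternatives) moved by less than the spread between neurons. Their alternatives were the other scalings, each neuron left out and, for alpha, beta and gamma sums, overlapping genes added. The spread was wide: the type I median of 160 CPM became 87.0 CPM with OSN1 left out. For the 22 named members only scaling to protein-coding genes was tried, and their medians moved by less than that spread. Detection depended on the threshold and on depth. At 3 counts, members found fell to 2, 3 and 5 in OSN1, OSN2 and OSN5. At 8613 counts, 6.02, 6.97, 8.36 and 6.91 members would be expected in OSN2 to OSN5. Against protein-coding genes alone, the background was 11.4%, 27.0%, 36.1%, 29.7%, 23.9% and 8.36% in OSN1 to OSN6, above the members' share in each neuron. Numbers of shared genes were mostly as unstable. At 3 counts, OSN1 and OSN2 shared 0 clustered, 0 beta and 1 of all members, and OSN5 and OSN6 1 member. OSN3 and OSN4 shared 1 clustered, 0 beta and 7 of all members, the most members of any pair. The other 12 pairs shared a median of 0 clustered, 0 beta and 1.5 members. At equal depth the expected shared clustered genes were 0.687 for OSN1 and OSN2, 0.288 for OSN3 and OSN4 and a median of 0.368 for the other pairs. Of these other pairs, OSN1 with OSN5 (0.764) and OSN4 with OSN5 (0.739) lay above OSN1 with OSN2. For beta genes the expected numbers were 0.687 and a median of 0.209 (OSN1 and OSN2, other pairs), with OSN1 and OSN5 highest at 0.764. For all members they were 3.14, 2.85 and a median of 2.35 (OSN1 and OSN2, OSN3 and OSN4, other pairs), with OSN4 and OSN5 highest at 3.49. These changes follow from the fewer counts used. No paired analysis was possible because the neurons form 1 group.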
